A study of Mus musculus with 9 samples.

Results

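The genes described here were 6 cytokine receptor chains (Il2rg, Il7r, Il4ra, Il6ra, Il6st and Il21r) and 4 feedback inhibitors of cytokine signaling of the SOCS family (Socs1, Socs2, Socs3 and Cish). They were chosen by symbol, and all 10 were found among the 24594 genes of the table. Their RNA was measured by bulk RNA sequencing in 9 libraries of semimature CD4 single-positive (SP4) thymocytes. The sorted cells were CD69+ and carried the OT-II T cell receptor transgene, which recognizes an ovalbumin peptide. Irradiated hosts had received a mix of marrow, made of OT-II marrow, OT-II marrow labelled Nr4a1-/- Nr4a3-/- (double knockout, DKO) and non-transgenic wild-type marrow. All cells were taken 4.7 weeks after reconstitution. RIPmOVA hosts were F1 mice of BoyJ and a transgenic strain in which the rat insulin promoter drives a membrane-bound ovalbumin, so that OT-II cells meet it in the thymus as a self-antigen. WT hosts, which lack ovalbumin, are BoyJ by the labels, while the methods describe WT mice from the same F1 crosses. If the labels hold, host strain and self-antigen cannot be told apart. OT-II control donors, Nr4a1+/+ and Nr4a3+/+, were F1 mice of the OT-II strain and BoyJ, and DKO donors were C57BL/6, so donor strain and Nr4a genotype cannot be told apart. There were n = 2 libraries of OT-II cells from WT hosts, n = 3 of DKO-labelled OT-II cells from WT hosts, n = 2 of OT-II cells from RIPmOVA hosts and n = 2 of DKO-labelled OT-II cells from RIPmOVA hosts. By the mouse named in the labels, libraries of both genotypes with the same number and host came from the same mouse.

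Cytokines of this group act through paired receptor chains that bind JAK kinases, which phosphorylate STAT transcription factors. The common gamma chain, encoded by Il2rg, is shared by the receptors for IL-2, IL-4, IL-7, IL-9, IL-15 and IL-21, while Il6st encodes gp130, the signaling chain shared by the IL-6 family. STAT factors induce Cish and the SOCS genes, whose products bind receptors or JAKs and damp the signal. In the thymus, IL-7 receptor signaling supports early thymocytes and the survival of positively selected cells. Socs1 is known to limit responses of thymocytes to common gamma chain cytokines, and Cish to limit T cell receptor signaling.

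Recovered depth was 15520795 to 25053767 exonic reads per library. Values are RPKM, reads scaled to the exon length of the gene and the exonic reads of the library. Gene-level RPKM of the targeted genes did not show the knockout as a lower level. In WT hosts, Nr4a1 was 60.7 and 86.1 RPKM in OT-II against 60.1, 80.2 and 87.7 RPKM in DKO-labelled libraries, and 260.0 and 229.1 RPKM in OT-II against 282.0 and 234.7 RPKM in DKO-labelled libraries of RIPmOVA hosts. Nr4a3 was 5.66 and 3.72 RPKM in OT-II libraries and 16.5 and 14.1 RPKM in DKO-labelled libraries of RIPmOVA hosts. By the rule given below it was called higher in DKO-labelled cells there, at a log2 fold change of 1.63. Of all genes, 0.510% were called higher. Which part of each gene the alleles remove was not stated in the sources used here, so genotype rests on the labels. The 9 markers of the sorted cells, CD3 chains, Cd4, Cd5, Cd69, Ccr7, Lck and Zap70, summed to 1949 to 2231 RPKM in every library. The summed level of 5 regulatory T cell markers (Foxp3, Il2ra, Ikzf4, Lrrc32 and Ctla4) was 10.6 to 17.3 RPKM in OT-II and 5.17 to 7.37 RPKM in DKO-labelled libraries of WT hosts. It was 36.1 and 49.0 RPKM in OT-II against 31.5 and 36.2 RPKM in DKO-labelled libraries of RIPmOVA hosts. Of these 5 markers, 3 were called higher in RIPmOVA hosts in each genotype, by the rule given below. Of all genes, 1.05% were called higher in OT-II and 1.52% in DKO-labelled cells. Between genotypes in RIPmOVA hosts, 2 of the 5, Foxp3 and Lrrc32, were called lower in DKO-labelled cells and 0 higher. The share of all genes called lower was 0.562%. The median log2 fold change of the 5 was -0.94 beside 0.045 over all genes. Ctla4 went the other way, at 11.7 and 20.4 RPKM in OT-II against 23.2 and 22.1 RPKM in DKO-labelled libraries, and was not called. Foxp3 and Lrrc32 passed the filter on low values through the OT-II libraries of RIPmOVA hosts alone. This bears on their host comparison in OT-II cells as well as on that between genotypes. In the fit without that filter their adjusted p between genotypes was 0.0083 and 0.045. Foxp3, the defining factor of regulatory T cells, was 1.90 and 3.31 RPKM in OT-II against 0.092 and 0.077 RPKM in DKO-labelled libraries of RIPmOVA hosts. Markers of myeloid cells summed to 2.11 to 11.1 RPKM in WT and 5.84 to 21.6 RPKM in RIPmOVA hosts, and those of thymic epithelium to 2.75 to 5.45 and 5.05 to 11.8 RPKM. Those of B cells summed to 2.79 to 10.6 RPKM, of NK and innate lymphoid cells to 1.79 to 5.52, of erythroid cells to 0.964 to 25.1, of CD8 T cells to 58.1 to 98.2 and of double-positive thymocytes to 18.2 to 31.0 RPKM over all libraries. Most of the CD8 sum was Cd8b1, at 54.5 to 96.4 RPKM, while Cd8a was 1.76 to 7.60. Most of the double-positive sum was Dntt, at 17.0 to 30.1 RPKM, and most of the epithelial sum was Epcam, at 2.24 to 10.2. In RIPmOVA hosts, the myeloid sums were 21.6 and 10.9 RPKM in OT-II against 5.84 and 8.22 RPKM in DKO-labelled libraries. Most of the OT-II sums there was Lyz2, at 18.7 and 8.44 RPKM, against 2.12 and 2.83 RPKM in DKO-labelled libraries. No marker was under 0.1 RPKM in every library. The part of other cells in the host and genotype differences below was not tested. In bulk samples, fewer cells of a type and less RNA per cell cannot be told apart.

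Upstream of 9 of the 10 genes, a RefSeq window of 250 bases before to 50 after the transcription start was searched for STAT motifs and for the motif of the NR4A receptors. The STAT motif TTCNNNGAA, which reads the same on both strands, was found in 8.3% of all 32851 windows. It was found in the windows of Cish, Il7r and Socs3, and in none of the other 6. The form with a spacer of 4 bases was found in 6.95% of all windows and in 0 of the 9. The NR4A motif AAAGGTCA, searched on both strands, was found in 1.51% of all windows and once among the 9, in that of Il21r. Stretches of 30 bases around the matches in GRCm38.p6 are shown 5′ to 3′ on the strand of the gene with the motif in capitals, because the calls of Cish and Il7r below held in all 21 alternatives and the window of Cish was the one with 2 matches:
Cish, chr9:107296654-107296683, plus strand: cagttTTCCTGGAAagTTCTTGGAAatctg
Il7r, chr15:9529999-9530028, minus strand: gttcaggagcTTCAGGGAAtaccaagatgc
Socs3, chr11:117969501-117969530, minus strand: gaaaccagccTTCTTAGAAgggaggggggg
Counting the RefSeq start base as 0, the matches of Cish began at 0 and 11, that of Il7r at -142 and that of Socs3 at -154. GENCODE also annotates earlier starts of Cish, Il7r and Socs3, so that each stretch lies within the annotated gene there. That of Cish lies within a first exon. Motif matches are a description of the sequence and say nothing about binding in these cells.

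Il2rg had the highest level of the 10 genes in each group and Socs2 the lowest in 3 of the 4 groups. In OT-II libraries of WT hosts, mean levels were 375.6 ± 17.5 RPKM (SD, n = 2) for Il2rg, 69.3 ± 7.67 for Il21r, 38.2 ± 13.2 for Il4ra and 35.8 ± 4.97 for Il7r. Il6st followed with 23.7 ± 6.18 RPKM, Socs1 with 21.9 ± 1.02, Socs3 with 9.25 ± 3.95, Il6ra with 4.17 ± 0.0078, Cish with 1.79 ± 0.38 and Socs2 with 0.426 ± 0.256 (SD, n = 2 each). Library ranges of Il4ra and Il7r overlapped, as did those of Il6st and Socs1, and other neighbours in the order did not overlap. In OT-II libraries of RIPmOVA hosts, Cish stood above Socs3, Socs2 and Il6ra with no overlap, at 10.8 ± 1.35 RPKM (SD, n = 2). The length behind each RPKM equalled the summed length of all distinct exons, overlapping ones counted more than once, for 7 of the 10 genes in GENCODE vM21, and equalled the merged exon length for 0 of 10. Rescaled to merged exon length, the OT-II order in WT hosts was again led by Il2rg and Il21r, but Socs1 moved from rank 6 to rank 4. The RPKM of 1 gene across libraries is not touched by its length.

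**Figure D1:**
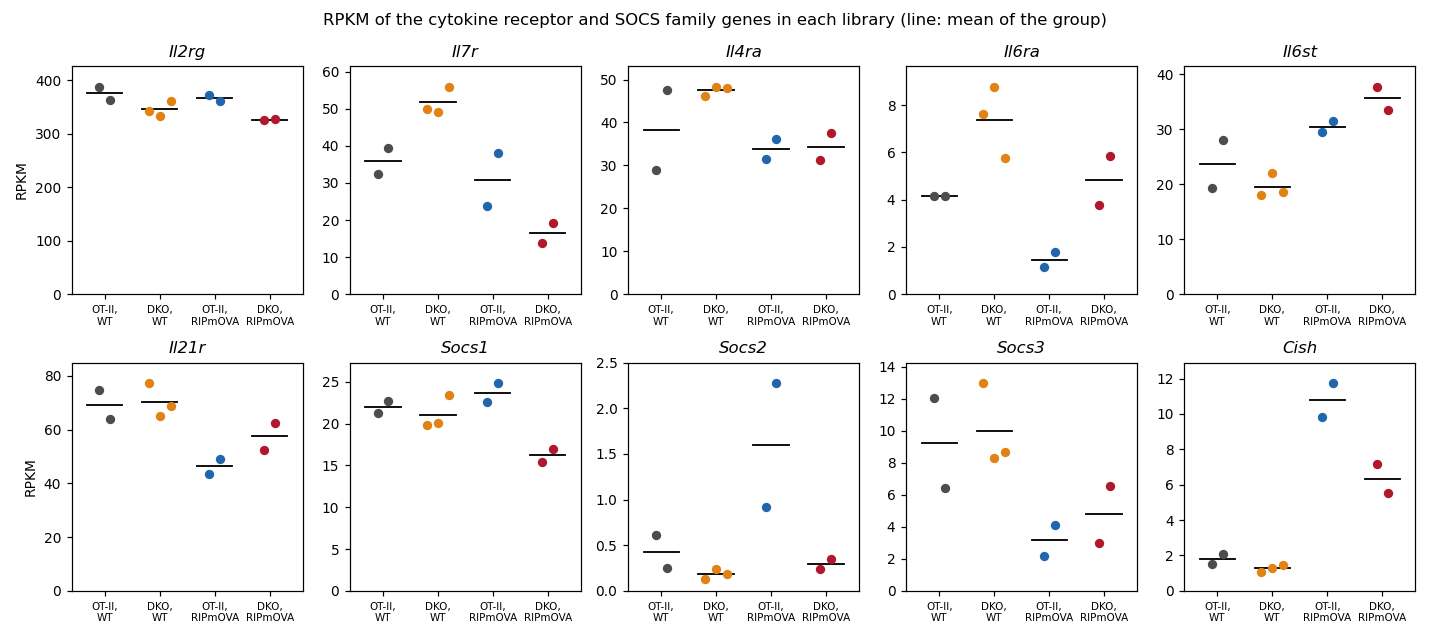
RPKM on a linear axis from 0 for each of the 10 genes; each point is 1 library, the horizontal line is the mean of the group, and groups are OT-II and DKO-labelled OT-II cells from WT or RIPmOVA hosts. Cish was 1.06 to 2.06 RPKM in WT hosts and 5.53 to 11.7 RPKM in RIPmOVA hosts, and Il7r was lowest in DKO-labelled libraries of RIPmOVA hosts.

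Differences were tested with limma on log2(RPKM + 0.5), which understates changes of low genes. A gene was called at a Benjamini-Hochberg adjusted p of 0.05 or less over the 11569 genes kept, where its log2 fold change was also 1 or more in size. Of the 10 genes, 9 passed the filter on low values and Socs2 did not. Comparisons share libraries, so their values stand side by side and are not independent of each other. The first question was how the genes differed where self-antigen was present, RIPmOVA against WT hosts, in each genotype. In OT-II cells, 2 of the 9 genes were called, against 1.23% of all genes tested. Cish was the one called higher, where 1.05% of all genes were, and Il6ra the one called lower, where 0.173% were. In DKO-labelled cells, 2 of 9 were called, against 1.68% of all genes. Here Cish was called higher, where 1.52% of all genes were, and Il7r lower, where 0.156% were. Libraries of the 2 hosts did not overlap for 5 of the 9 genes in OT-II cells, against 41.6% of all genes. They did not overlap for 8 of 9 in DKO-labelled cells, against 40.0% of all genes.

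Cish encodes CIS, a SOCS family protein that binds activated receptors and competes with STAT5 for them. It was 1.52 and 2.06 RPKM in OT-II libraries of WT hosts and 9.82 and 11.7 RPKM in those of RIPmOVA hosts. In DKO-labelled libraries it was 1.06, 1.29 and 1.46 RPKM in WT hosts and 7.16 and 5.53 RPKM in RIPmOVA hosts. Every RIPmOVA library lay above every WT library, and in both hosts the DKO-labelled libraries lay below the OT-II libraries. Cish rose in RIPmOVA hosts by 2.30 on the log2 scale in OT-II (SE 0.19, adjusted p = 0.00092) and by 1.95 in DKO-labelled cells (SE 0.18, adjusted p = 0.00077). The ratio of mean RPKM between hosts was 6.02 in OT-II against 4.998 in DKO-labelled cells. Between genotypes in RIPmOVA hosts the log2 fold change was -0.73 (SE 0.19, adjusted p = 0.091), which was not called. These values rest on 256 to 516 reads of Cish per library in WT hosts and 1047 to 3082 in RIPmOVA hosts. GENCODE places Cish (Entrez 12700) at chromosome 9, 107296026 to 107302784, plus strand, with Gm17040 and Gm17041 on the other strand at the same place, and the use of strand in counting was not stated.

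Neither of the other SOCS genes tested, Socs1 and Socs3, was called in a comparison. Socs1 encodes an inhibitor that binds JAK kinases. It was 21.2 and 22.6 RPKM in OT-II libraries of WT hosts, 19.8, 20.02 and 23.4 in DKO-labelled libraries of WT hosts, and, in RIPmOVA hosts, 22.5 and 24.8 in OT-II against 15.5 and 17.0 in DKO-labelled libraries. The DKO-labelled libraries of RIPmOVA hosts were the lowest and overlapped no other group. The log2 fold change between genotypes in RIPmOVA hosts was -0.53 (SE 0.11, adjusted p = 0.049), which met the limit on p but not that on fold, and the host difference in DKO-labelled cells was -0.37 (SE 0.10, adjusted p = 0.10).

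Socs3, whose product binds gp130 and JAKs and limits IL-6 family signals, was 12.04 and 6.45 RPKM in OT-II against 12.97, 8.31 and 8.65 RPKM in DKO-labelled libraries of WT hosts. In RIPmOVA hosts it was 2.19 and 4.13 RPKM in OT-II against 3.01 and 6.58 RPKM in DKO-labelled libraries. Within each genotype the libraries of RIPmOVA hosts lay below those of WT hosts, but libraries of the same group differed by up to nearly the size of the host difference. Neither host difference passed the test, with log2 fold changes of -1.41 in OT-II (SE 0.41, adjusted p = 0.14) and -1.05 in DKO-labelled cells (SE 0.37, adjusted p = 0.19).

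Socs2, an inhibitor best known from growth hormone signaling, was at a low level. It had 50 and 30 reads in OT-II against 17, 26 and 24 in DKO-labelled libraries of WT hosts, and 80 and 292 in OT-II against 26 and 32 in DKO-labelled libraries of RIPmOVA hosts. These are 0.607 and 0.245, 0.131, 0.243 and 0.181, 0.914 and 2.27, and 0.239 and 0.345 RPKM. Both OT-II libraries of RIPmOVA hosts were above all others, and they differed from each other more than the other groups did. In a fit without the filter, the log2 fold change between hosts in OT-II was 1.13 (SE 0.36, adjusted p = 0.34) and that between genotypes in RIPmOVA hosts was -1.33 (SE 0.36, adjusted p = 0.086).

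Among the receptors, Il7r encodes the alpha chain of the IL-7 receptor. It was 32.3 and 39.4 RPKM in OT-II against 50.1, 49.3 and 56.0 RPKM in DKO-labelled libraries of WT hosts. In RIPmOVA hosts it was 23.7 and 38.0 RPKM in OT-II against 13.7 and 19.2 RPKM in DKO-labelled libraries. DKO-labelled libraries were thus the highest of the 4 groups in WT hosts and the lowest in RIPmOVA hosts, with no overlap with a neighbouring group on either side, while the OT-II libraries of both hosts overlapped. In DKO-labelled cells Il7r fell by 1.64 on the log2 scale in RIPmOVA hosts (SE 0.20, adjusted p = 0.0034), to a ratio of mean RPKM of 0.317. In OT-II cells the host difference was -0.25 (SE 0.22, adjusted p = 0.68). The interaction, which is the host difference in DKO-labelled minus that in OT-II cells, was -1.40 (SE 0.30, adjusted p = 0.25), so the 2 host differences were not shown to differ. Between genotypes the log2 fold change was -0.87 in RIPmOVA hosts (SE 0.22, adjusted p = 0.081) and 0.53 in WT hosts (SE 0.20, adjusted p = 0.55), and neither was called. Il7r (Entrez 16197) lies at chromosome 15, 9505788 to 9530176, minus strand, and no annotated gene overlaps it.

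Il6ra encodes the chain that binds IL-6 itself, and Il6st the gp130 chain that carries the signal. Il6ra was 4.18 and 4.16 RPKM in OT-II against 7.63, 8.79 and 5.76 RPKM in DKO-labelled libraries of WT hosts. In RIPmOVA hosts it was 1.13 and 1.80 RPKM in OT-II against 3.78 and 5.86 RPKM in DKO-labelled libraries. OT-II libraries of RIPmOVA hosts were the lowest, with no overlap with another group, and within each host the DKO-labelled libraries lay above the OT-II libraries. In OT-II cells Il6ra fell by 1.27 on the log2 scale in RIPmOVA hosts (SE 0.25, adjusted p = 0.040), and in DKO-labelled cells the difference was -0.58 (SE 0.23, adjusted p = 0.24). The call in OT-II held in 8 of 21 alternatives, with adjusted p from 0.030 to 0.31, and was lost when any of 7 of the 9 libraries was left out.

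The second question was how the genotypes differed within a host. In RIPmOVA hosts, 1 of the 9 genes was called, against 1.07% of all genes, and 2 passed the adjusted p alone, against 2.21%. The gene called was Il6ra, which was higher in DKO-labelled cells by 1.43 on the log2 scale (SE 0.25, adjusted p = 0.024), where 0.510% of all genes were called higher. That call held in 16 of 21 alternatives, and was lost without either OT-II library of RIPmOVA hosts, with adjusted p of 0.17 without the library of mouse 1 and 0.067 without that of mouse 2. It was also lost without the DKO-labelled library of mouse 2, with an adjusted p of 0.13. The summed RPKM of 1490 genes for odorant, vomeronasal and taste receptors, which thymocytes should lack, was 204 and 73.9 in OT-II against 482 and 648 in DKO-labelled libraries of RIPmOVA hosts. With the log2 of this sum as a covariate, the log2 fold change of Il6ra was 1.29 with an adjusted p of 0.30. In WT hosts, limma called 0 of the 9 genes, against 0.0605% of all genes, and Il6ra and Il7r passed an unadjusted p of 0.05, as did 7.89% of all genes. The log2 fold change of Il6ra there was 0.74 (SE 0.23, adjusted p = 0.41). Libraries of the genotypes did not overlap for 7 of the 9 genes in RIPmOVA hosts, against 59.0% of all genes, and for 4 of 9 in WT hosts, against 20.8%. For the interaction, limma called 0 of the 9, against 0.0173% of all genes, and Il7r and Socs1 passed an unadjusted p of 0.05, as did 9.32% of all genes. Limma voom on the recovered reads also called 0 of the members in WT hosts and for the interaction.

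**Figure D2:**
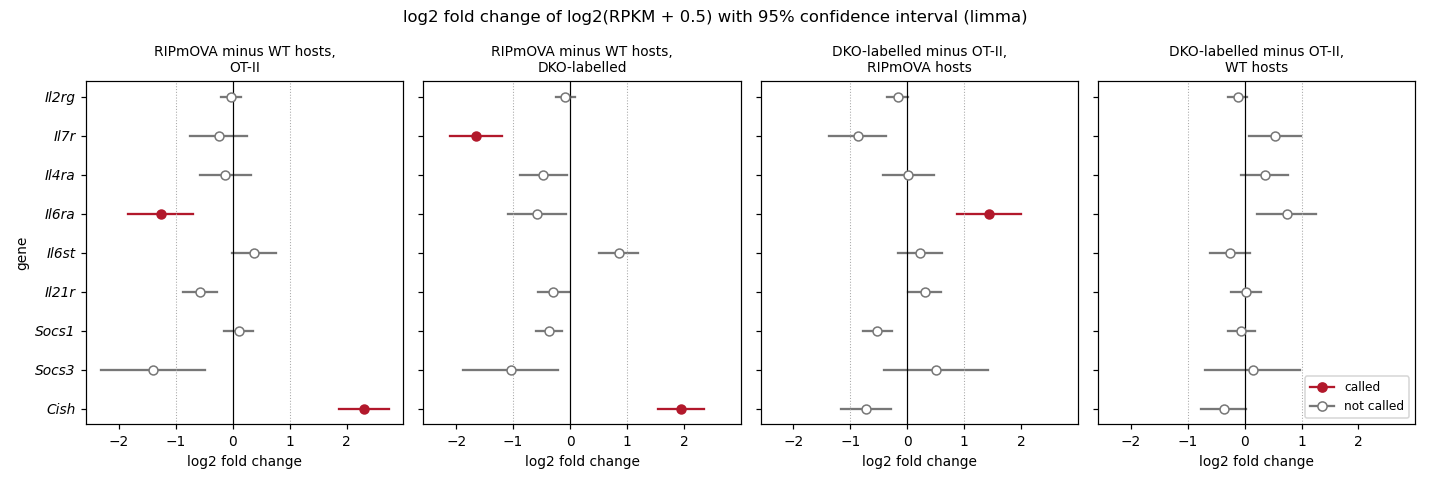
Log2 fold changes of log2(RPKM + 0.5) with 95% confidence intervals from limma for the 9 genes tested, in the 4 comparisons of host and genotype; filled points were called and dotted lines mark the limit of 1. Cish was called in both host comparisons, Il7r in DKO-labelled cells, and Il6ra in OT-II cells and between genotypes in RIPmOVA hosts.

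Il6st was 19.3 and 28.1 RPKM in OT-II against 18.0, 22.1 and 18.6 RPKM in DKO-labelled libraries of WT hosts, and in RIPmOVA hosts 29.4 and 31.5 in OT-II against 37.8 and 33.4 RPKM in DKO-labelled libraries. Libraries of RIPmOVA hosts lay above those of WT hosts in each genotype. In DKO-labelled cells the log2 fold change between hosts was 0.85 (SE 0.16, adjusted p = 0.021), which met the limit on p but not that on fold, and in OT-II cells it was 0.38 (SE 0.17, adjusted p = 0.36). With Il7r and Cish, 3 of the 9 genes passed the adjusted p alone in DKO-labelled cells, against 3.35% of all genes.

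Il21r encodes the private chain of the IL-21 receptor and Il4ra that of the IL-4 receptor. Il21r was 74.8 and 63.9 RPKM in OT-II against 77.3, 65.1 and 68.9 RPKM in DKO-labelled libraries of WT hosts, and in RIPmOVA hosts 43.5 and 49.2 in OT-II against 52.5 and 62.6 RPKM in DKO-labelled libraries. All libraries of RIPmOVA hosts were below those of WT hosts, by log2 fold changes of -0.58 in OT-II (SE 0.13, adjusted p = 0.065) and -0.29 in DKO-labelled cells (SE 0.12, adjusted p = 0.25), neither of which passed the test. Il4ra was 28.8 to 48.3 RPKM over all 9 libraries, and its 2 OT-II libraries of WT hosts, at 28.8 and 47.5 RPKM, covered nearly that whole range. Its log2 fold change between hosts was -0.13 in OT-II (95% interval -0.58 to 0.32) and -0.47 in DKO-labelled cells (95% interval -0.88 to -0.057, adjusted p = 0.23). Il2rg was 363.2 to 388.0 RPKM in OT-II libraries of WT hosts, 361.6 to 372.9 in those of RIPmOVA hosts, 333.9 to 360.5 in DKO-labelled libraries of WT hosts and 324.8 to 327.3 in those of RIPmOVA hosts. The 95% interval of its host difference was -0.21 to 0.15 in OT-II and -0.25 to 0.083 in DKO-labelled cells. Reads of Il2rg and of Gm20489, which overlaps it on the same strand, cannot be told apart.

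The rest of the pathway was examined through lists of other receptor chains, JAK kinases, STAT factors, further inhibitors, ligands and STAT target genes. Of 27 other receptor chains, 14 were expressed enough to test. In OT-II cells, 2 of them were called higher in RIPmOVA hosts, where 1.05% of all genes were, and 0 lower. Their median log2 fold change was 0.031 beside -0.021 over all genes tested. In DKO-labelled cells, 3 were called higher, where 1.52% of all genes were, and 0 lower, with a median of 0.18 beside 0.027. Those called were the chains that join Il2rg in the IL-2 receptor and a chain shared by the IL-12 and IL-23 receptors. Il2ra, the alpha chain CD25, was 4.25 and 2.28 RPKM in OT-II against 1.35, 1.53 and 0.912 RPKM in DKO-labelled libraries of WT hosts, and in RIPmOVA hosts 12.3 and 13.6 in OT-II against 8.48 and 5.26 RPKM in DKO-labelled libraries. It rose by 1.89 on the log2 scale in OT-II (SE 0.29, adjusted p = 0.016) and by 2.04 in DKO-labelled cells (SE 0.27, adjusted p = 0.0046). Il2ra is also on the lists of STAT targets and of regulatory T cell markers.

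Il2rb, the beta chain of the IL-2 and IL-15 receptors, was 5.09 and 6.92 RPKM in OT-II against 12.54, 4.59 and 6.62 RPKM in DKO-labelled libraries of WT hosts, and in RIPmOVA hosts 27.9 and 38.1 in OT-II against 42.1 and 27.6 RPKM in DKO-labelled libraries. It rose by 2.36 in OT-II (SE 0.39, adjusted p = 0.020) and by 2.15 in DKO-labelled cells (SE 0.35, adjusted p = 0.013). Thus 2 chains of the IL-2 receptor were higher in RIPmOVA hosts, while the third chain, Il2rg, was not called. Il12rb1 rose by 1.17 in DKO-labelled cells (SE 0.13, adjusted p = 0.0020), and in OT-II its log2 fold change was 0.76 (SE 0.14, adjusted p = 0.032), under the limit on fold. Il27ra, at the highest mean level of the list, had log2 fold changes of -0.29 in OT-II (SE 0.12, adjusted p = 0.31) and -0.0045 in DKO-labelled cells (SE 0.11, adjusted p = 0.99).

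Of the 4 JAK kinases, limma called 0 in any of the 5 comparisons, and 2 passed an unadjusted p of 0.05 in each host comparison and 0 in the others. Of all genes, 14.3% passed it between hosts in OT-II, 17.6% between hosts in DKO-labelled cells and 21.4% between genotypes in RIPmOVA hosts. Jak1, the most abundant, was 150.3 and 156.3 RPKM in OT-II libraries of WT hosts and 144.3 and 149.9 RPKM in those of RIPmOVA hosts, a log2 fold change of -0.059 (95% interval -0.24 to 0.12). The median log2 fold change of the JAKs between hosts was 0.34 in OT-II against 0.27 in DKO-labelled cells. Limma also called 0 of the 7 STAT genes, of which 2 passed an unadjusted p of 0.05 between hosts in OT-II and 4 in DKO-labelled cells, beside those 14.3% and 17.6%, with medians of 0.23 and 0.28. Stat5a, which transmits IL-2 and IL-7 signals, was 19.4 and 16.6 RPKM in OT-II against 15.3, 13.1 and 13.6 RPKM in DKO-labelled libraries of WT hosts, and in RIPmOVA hosts 33.8 and 32.4 in OT-II against 21.7 and 21.2 RPKM in DKO-labelled libraries. It passed the adjusted p in OT-II at 0.86 (SE 0.11, adjusted p = 0.0061), in DKO-labelled cells at 0.60 (SE 0.10, adjusted p = 0.015) and between genotypes in RIPmOVA hosts at -0.61 (SE 0.11, adjusted p = 0.028). Stat4, which transmits IL-12 signals, also passed the adjusted p between hosts in DKO-labelled cells, at 0.76 (SE 0.12, adjusted p = 0.011), from 12.0, 11.8 and 10.3 RPKM to 22.1 and 17.3 RPKM. Its log2 fold change between genotypes in RIPmOVA hosts was 0.41 (SE 0.13, adjusted p = 0.13). Stat5a and Stat4 are outside the rule for named genes and were chosen after their values were seen. Stat5b, at the highest mean level of the list, had a log2 fold change between hosts of 0.37 in OT-II (SE 0.10, adjusted p = 0.12) and 0.0099 in DKO-labelled cells (SE 0.093, adjusted p = 0.97).

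The 13 further inhibitors tested had medians between hosts of -0.031 in OT-II against 0.017 in DKO-labelled cells. Among them, Socs5 was the one called in a host comparison, in DKO-labelled cells, where 1.52% of all genes were called higher. Socs5 rose by 1.35 (SE 0.29, adjusted p = 0.042), from 0.638, 1.22 and 1.16 RPKM to 4.41 and 2.39 RPKM, and its log2 fold change in OT-II was 0.86 (SE 0.32, adjusted p = 0.25). Without the filter on low values the call in DKO-labelled cells was lost (adjusted p = 0.085). Of 12 ligand genes, 4 were kept by the filter. Lif was kept through libraries of RIPmOVA hosts alone, and Il27 through DKO-labelled libraries of RIPmOVA hosts alone. The filter thus favoured a host difference of Lif. For Il27 it favoured differences between hosts in DKO-labelled cells and between genotypes in RIPmOVA hosts. No test on the kept genes is given for either gene. Lif is an IL-6 family cytokine that signals through gp130. It had 3 and 3 reads in OT-II against 19, 22 and 7 reads in DKO-labelled libraries of WT hosts, and in RIPmOVA hosts 94 and 200 in OT-II against 208 and 128 reads in DKO-labelled libraries. Summed over the libraries of a host and scaled to their depth, its reads were 46.5 times as high in RIPmOVA hosts in OT-II (95% counting interval 21.1 to 127.6) and 12.8 times as high in DKO-labelled cells (95% counting interval 9.47 to 17.8). These intervals leave out differences between mice, and the OT-II ratio rests on 6 reads in WT hosts. In the fit without the filter, the log2 fold changes on the scale with the pseudocount were 1.94 (SE 0.29, adjusted p = 0.032) and 1.90 (SE 0.27, adjusted p = 0.014).

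Of 12 STAT target genes tested, 2 were called higher in RIPmOVA hosts in OT-II cells, Il2ra and Bcl6, against 1.05% of all genes. In DKO-labelled cells 1 was, Il2ra, against 1.52% of all genes, and 0 were called lower in either genotype. Median log2 fold changes of the targets were 0.00036 in OT-II and -0.056 in DKO-labelled cells. Bcl6, a transcriptional repressor, was 3.27 and 3.55 RPKM in OT-II libraries of WT hosts and 9.75 and 6.56 RPKM in those of RIPmOVA hosts, and rose by 1.12 (SE 0.21, adjusted p = 0.034), a call that was lost without the filter (adjusted p = 0.075). In DKO-labelled cells its log2 fold change was 0.86 (SE 0.19, adjusted p = 0.047). Between genotypes in RIPmOVA hosts, the 1 target called was Pim2, a survival kinase, where 0.510% of all genes were called higher. Pim2 was 17.6 and 16.4 RPKM in OT-II against 42.5 and 47.5 RPKM in DKO-labelled libraries, a rise of 1.38 (SE 0.16, adjusted p = 0.0056). The median of the 12 targets there was -0.16 beside 0.045 over all genes. An unadjusted p of 0.05 was passed by 8, where 21.4% of all genes did, and 1 was lower by limma's adjusted p alone. Bcl2, named after its values were seen, was 36.8 and 42.9 RPKM in OT-II against 19.8 and 22.0 RPKM in DKO-labelled libraries. Of 6 tested factors known to act at Il7r, among them Foxo1 and Gfi1, limma called 0 in any of the 5 comparisons. In the host comparisons 1 of them passed an unadjusted p of 0.05 in OT-II against 2 in DKO-labelled cells, with median log2 fold changes of 0.094 and -0.017, and between genotypes 4 did in RIPmOVA hosts, where 21.4% of all genes did, and 1 in WT hosts, where 7.89% did.

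**Figure D3:**
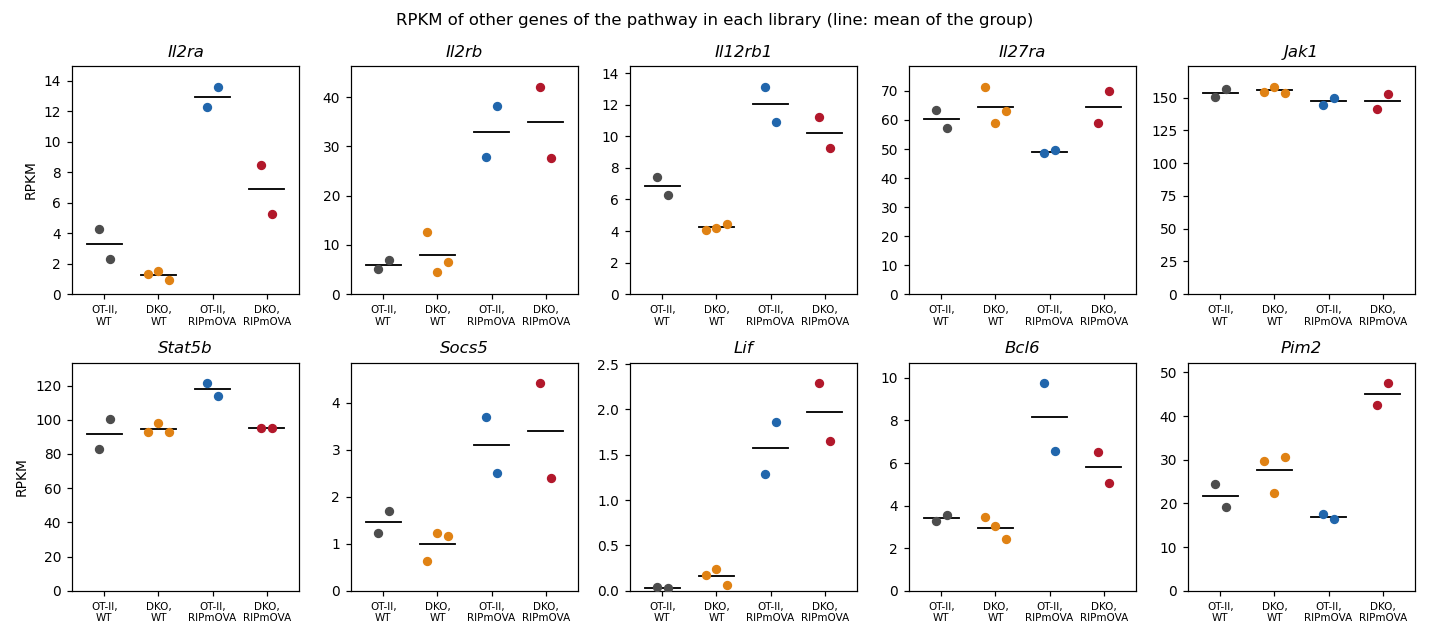
RPKM on a linear axis from 0 for the other pathway genes that were called in a comparison, and for the most abundant receptor chain (Il27ra), kinase (Jak1) and STAT (Stat5b) of the lists; each point is 1 library and the line is the mean of the group. For Lif, the call counted is that of the fit without the filter on low values. Il2ra was 0.912 to 4.25 RPKM in WT hosts and 5.26 to 13.6 RPKM in RIPmOVA hosts, and Jak1 stayed between 141.6 and 158.4 RPKM.

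Over the 9 libraries, the genes most like Cish on the log2 scale were Icam1 (Pearson r = 0.992) and Marcksl1 (r = 0.988). Those most like Il7r were Cd200r1 (r = 0.972) and Emc8 (r = 0.955), and those most like Il6ra were Ripor2 (r = 0.986) and Treml2 (r = 0.98). These correlations are descriptions over libraries that fall into 4 groups and share mice, and the best of 11569 genes is high by selection.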

How the data were processed

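RNA of 9 libraries in 4 groups was analysed as deposited. According to the methods, the authors used STAR with mm10 and GENCODE vM17 for alignment, removed duplicates marked by Picard, summed reads over exons per Entrez gene with GenomicRanges, and deposited RPKM values with gene lengths. Versions of STAR and Picard were not given in the sources used here. Depth was recovered from the steps of RPKM at the deposited length, and 100% of the values checked were whole reads within 0.1, and read numbers and intervals cover counting error only.

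The filter kept 11569 genes, those that reached an RPKM of 1 in 2 or more libraries. Group means over all 9 libraries were fitted to log2(RPKM + 0.5) with limma 3.58.1 in R 4.3.3 (eBayes with trend, two-sided, Benjamini-Hochberg). On simulated data for the host comparison in OT-II, with 11569 genes and 200 changed per set, 91% were recovered, with a false share of 1.62%. That recovery belongs to the changes put into the simulation and does not tell how often changes of these 10 genes would be found. Both genotypes of a host share mice by the labels. The correlation of their deviations was 0.0059 and -0.24 for the 2 WT mice and -0.079 for each RIPmOVA mouse, and a block by mouse was an alternative. The other alternatives were pseudocounts, filters, scalings, the variance prior, a covariate, the call rule, the libraries in the fit, leaving out each library and, chosen after seeing the data, voom on recovered reads. Positions come from GENCODE vM21 of GRCm38, the build of mm10, and promoter windows from RefSeq. Named genes were the 10 members, pathway list genes called in any comparison, the most abundant receptor chain, kinase and STAT, the 2 genes most correlated with each called member, and the targeted genes. The members and lists were chosen with earlier results of these data known. Plots were made with matplotlib 3.10.9 in Python 3.11.15.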

Additional observations from a re-analysis of the deposited data

How the results depend on the processing

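The calls of Cish in both genotypes and of Il7r in DKO-labelled cells were kept in all 21 alternatives to the fit, with log2 fold changes of 2.08 to 2.57 and 1.69 to 2.33 for Cish and -1.88 to -1.40 for Il7r. The calls of Il6ra were not. In OT-II cells, the number of the 10 genes called between hosts was 2, and 1 (Cish) without the filter, after quantile normalization, without the intensity trend, with the sensory receptor covariate, in a fit to the groups compared and by voom on recovered reads. It was 1 to 2 when each library was left out. Between genotypes in RIPmOVA hosts the number was 1, and 0 with the covariate and in a fit to the groups compared, 2 on adjusted p alone, and 0 to 1 when each library was left out. Where that leaves 1 library in a group, it is assumed to vary like the others. The cause was not tested.

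Blocking on the mouse (consensus correlation 0.1) or the replicate number changed no call of the 10 genes. Blocked by mouse, Il6ra was -1.25 between hosts in OT-II (adjusted p = 0.036).

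Changes of sign occurred only in differences that were not called. Between hosts in OT-II, Il2rg was 0.23 after quantile normalization, and leaving out each library gave -0.079 to 0.016 for Il2rg, -0.58 to 0.091 for Il7r and -0.49 to 0.23 for Il4ra. Between genotypes in RIPmOVA hosts, Il4ra was -0.024 after median-of-ratios rescaling, and leaving out each library gave -0.11 to 0.14 for Il4ra and -0.0079 to 1.00 for Socs3. In WT hosts that range was -0.0019 to 0.71 for Il4ra, -0.52 to 0.010 for Il6st, -0.089 to 0.14 for Il21r and -0.29 to 0.56 for Socs3. For the interaction, Il4ra was 0.0064 with the covariate, and the range was -0.69 to 0.019 for Il4ra and -0.15 to 0.87 for Socs3.

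Over all genes, calls ranged from 31 to 296 between hosts in OT-II (142 as reported), 90 to 387 in DKO-labelled cells (194), 20 to 256 between genotypes in RIPmOVA hosts (124), 2 to 100 in WT hosts (7) and 0 to 159 for the interaction (2). The highest of the last pair came without the library of OT-II cells from WT host mouse 2. With 2 libraries in 3 of the 4 groups, and 17 to 292 reads of Socs2 per library, small differences of these genes were not detectable.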
